A study of Mus musculus with 57 samples.

Results

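The 10 genes described here are cardiomyocyte genes tied to stretch and to titin, or strain genes, and comprise Nppb, Ankrd1, Ankrd2, Ankrd23, Csrp3, Xirp1, Xirp2, Nrap, Sprr1a and Capn3. They were chosen by symbol, with earlier results of these same hearts known, so their differences between groups are a description. Which of them passed the edgeR fit over the whole table is stated as part of it, with no p, and supports nothing further. All 10 were found among the 25416 genes of the acute table and the 54658 genes of the chronic table, and all 10 passed the filter on low counts in both studies.

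Cardiomyocytes answer stretch by transcribing a small set of genes whose products sit at the Z-disc, along the elastic I-band of titin and at the intercalated disc, or leave the cell as hormones. Titin is the giant spring of the sarcomere, and the muscle ankyrin repeat proteins and calpain 3 bind its spring region. Others, such as the muscle LIM protein and the Xin repeat proteins, link actin filaments to the ends of the myofibril. Such genes are known to be raised in overloaded and failing hearts.

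Heart RNA was sequenced from wild-type male C57BL6/J mice in an acute and a chronic study of doxorubicin (Doxo), an anthracycline used against cancer that damages the heart, and of nicotinamide mononucleotide (NMN), a precursor of NAD+. In the acute study, 14 Ctrl mice received saline, 13 Doxo mice received 1 i.p. injection of 20 mg/kg Doxo, and 13 Doxo-NMN mice received that injection plus daily i.p. NMN (180 mg/kg/day) begun 5 days earlier, and hearts were taken on day 5. In the chronic study, 5 Ctrl mice received PBS, 6 Doxo mice received 5 i.p. injections of 4 mg/kg (20 mg/kg in all), and 6 Doxo-NMN mice received these injections and 500 mg/kg/day NMN in the drinking water, and hearts were taken on day 60. Acute mice were bought at 9 weeks of age and chronic mice were injected at 14 to 16 weeks. The studies also differed in supplier and in the site of sequencing, which cannot be told apart from the regimen. No group received NMN without Doxo. No other difference in treatment between the groups of a study was stated. The paper reports that fewer Doxo than Ctrl mice lived to collection. More Doxo-NMN than Doxo mice did, short of significance in the chronic study. Hearts therefore came from survivors, and the part of survival in the results was not tested.

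Total counts ranged from 32409622 to 52102850 in acute hearts and from 17769886 to 23862287 in chronic hearts. Levels are in CPM, counts relative to each library's scaled total. A floor of 3 counts stood for 0.0576 to 0.0926 CPM in the acute libraries. It stood for 0.126 to 0.169 CPM in the chronic ones, counting error alone. Ventricular cardiomyocyte markers were abundant in every heart, between 30125 and 88276 CPM in sum over 8 genes. Atrial tissue differed between acute hearts. At least 100 CPM of Myl4, the atrial myosin light chain, was present in 8 of 14 Ctrl, 5 of 13 Doxo and 4 of 13 Doxo-NMN hearts. Red cell markers of the acute study summed to 437 to 4311 CPM (Ctrl), 1.19 to 338 CPM (Doxo) and 0.209 to 2.81 CPM (Doxo-NMN), and their part in the results was not tested. Skeletal muscle fibre markers summed to 426 to 2328 CPM in the chronic study, and at most to 5.99 CPM in the acute study. The 6 atrial markers of the acute study summed to 46.2 to 5862 CPM in Ctrl hearts, with a median of 2897 CPM. They summed to 34.6 to 2226 CPM in Doxo (median 61.4) and 30.2 to 4241 CPM in Doxo-NMN hearts (median 61.7), so the ranges overlapped.

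Sequence upstream of the start is shown for Ankrd1 and Nppb, which share the letters GGAATG and of which only Ankrd1 was called with Doxo, for Sprr1a, the member with the largest difference in chronic hearts, and for Capn3, the member that was lower. The sequences are the 250 bases before the RefSeq start on GRCm38.p6, 5′ to 3′ on the gene's strand. Capitals mark the letters searched on both strands, which were GGAATG of TEAD factors, the AP-1 letters TGANTCA, the box spelled TATAAA near the start, the CArG box of SRF and the MEF2 site.
Ankrd1, chr19:36119845-36120094, minus strand: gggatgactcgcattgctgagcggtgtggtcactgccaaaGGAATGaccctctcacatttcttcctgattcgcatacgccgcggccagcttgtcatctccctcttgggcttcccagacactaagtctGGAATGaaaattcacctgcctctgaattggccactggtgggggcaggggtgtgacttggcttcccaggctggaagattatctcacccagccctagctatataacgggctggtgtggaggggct
Nppb, chr4:147985650-147985899, plus strand: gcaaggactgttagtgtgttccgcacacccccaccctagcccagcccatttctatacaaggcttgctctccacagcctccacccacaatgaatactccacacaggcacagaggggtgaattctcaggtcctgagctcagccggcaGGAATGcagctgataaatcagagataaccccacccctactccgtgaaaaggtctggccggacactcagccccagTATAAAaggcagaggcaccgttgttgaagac
Sprr1a, chr3:92485882-92486131, minus strand: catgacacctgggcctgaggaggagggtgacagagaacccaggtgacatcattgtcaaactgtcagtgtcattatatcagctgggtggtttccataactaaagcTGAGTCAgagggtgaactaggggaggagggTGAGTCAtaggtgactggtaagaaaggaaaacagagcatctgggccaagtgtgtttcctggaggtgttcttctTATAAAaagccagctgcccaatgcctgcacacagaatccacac
Capn3, chr2:120463343-120463592, plus strand: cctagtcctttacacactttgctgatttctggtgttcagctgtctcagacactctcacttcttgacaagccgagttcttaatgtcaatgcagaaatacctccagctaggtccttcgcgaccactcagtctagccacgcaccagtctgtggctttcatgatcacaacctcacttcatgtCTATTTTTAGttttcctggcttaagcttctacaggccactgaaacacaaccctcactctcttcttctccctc

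RefSeq windows of 300 bases, 250 before and 50 after the start, were matched for 9 of the 10 genes, all but Xirp1. In their first window GGAATG was found in Ankrd1, Ankrd23 and Nppb, TGANTCA in Sprr1a and Xirp2, TATAAA in Ankrd2, Nppb and Sprr1a, and the MEF2 site in Capn3 and Xirp2. The CArG box was found in none of the 9, and no searched letters were found in the windows of Csrp3 and Nrap. Over all 32851 windows of the table, GGAATG was present in 14.7%, TGANTCA in 7.81%, TATAAA in 13.6%, the CArG box in 1.63% and the MEF2 site in 0.557%. These are matches of letters and not shown to be sites that a factor uses.

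In Ctrl hearts the genes spanned a wide range of levels per length of exon. In acute Ctrl hearts the median was 360 RPKM (CPM per kilobase of exon) for Csrp3, 278 RPKM for Ankrd1, 219 RPKM for Nppb and 121 RPKM for Nrap. Medians of 59.5 RPKM for Xirp2, 44.7 RPKM for Xirp1 and 4.08 RPKM for Ankrd23 followed. Capn3 at 0.472, Sprr1a at 0.159 and Ankrd2 at 0.149 RPKM were the lowest. Ranges over hearts overlapped between neighbours in this order, except between Nrap and Xirp2, Xirp1 and Ankrd23, and Ankrd23 and Capn3. In acute Doxo hearts Ankrd1 was first, at a median of 1678 RPKM, and Capn3 was last, at 0.207 RPKM. In chronic Ctrl hearts Nppb led with 487 RPKM, and Sprr1a was last with 0.140 RPKM.

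The acute comparison asked what a single high dose did to heart RNA within days. Of the strain genes, 7 were higher and 1 was lower in acute Doxo than in Ctrl hearts, with adjusted p under 0.05 in edgeR and a change of 1.5-fold or more. Ankrd1, Ankrd2, Ankrd23, Csrp3, Xirp1, Nrap and Sprr1a were higher, by 1.87-fold for Csrp3 to 6.81-fold for Ankrd1, and Capn3 was lower. Of all 14240 genes tested, 14.7% were called higher and 15.4% lower. Since the genes were selected with this contrast in view, nothing is read from that difference in shares. The median log2 fold change was 1.57 over the 10 genes and −0.00 over all tested genes. The Doxo and Ctrl groups overlapped for every gene, and Doxo replicates 6 and 7 lay within or near the Ctrl hearts for most.

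**Figure D1:**
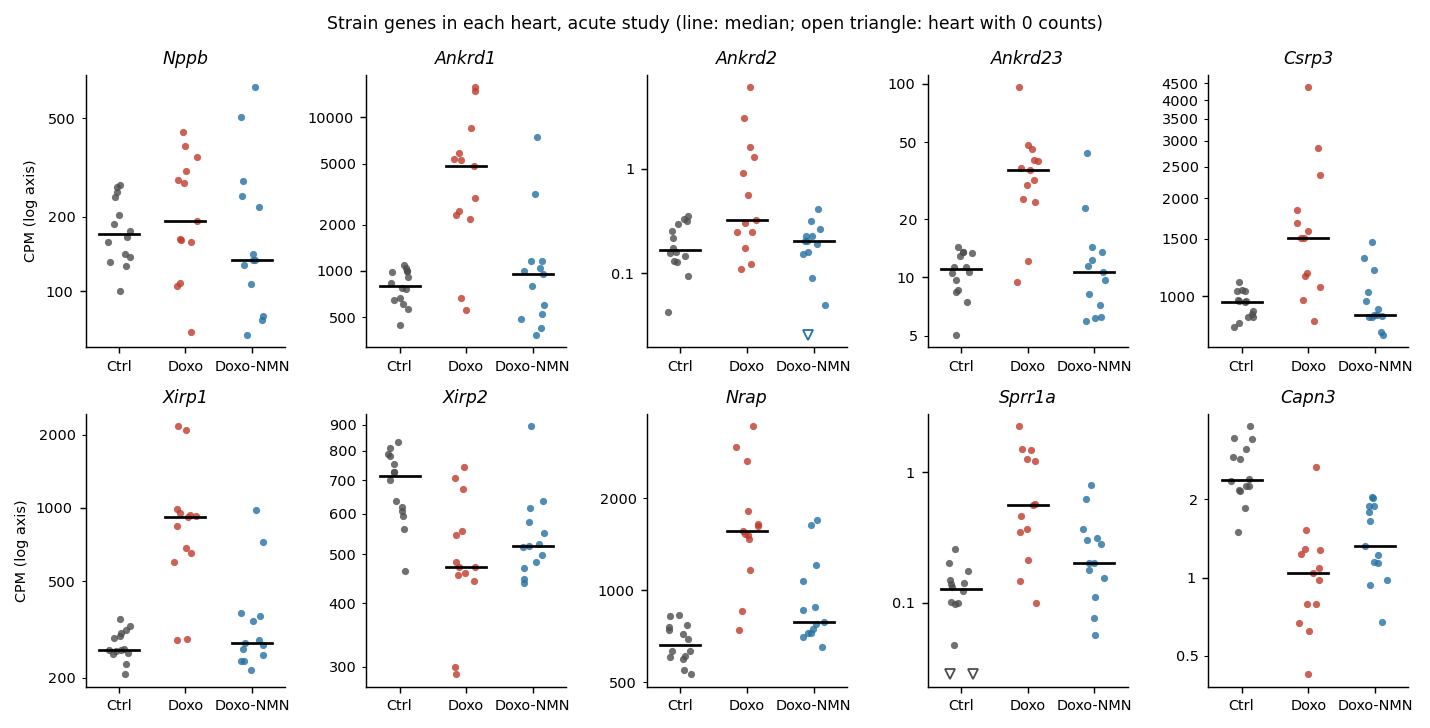
Level of each of the 10 strain genes (CPM, log axis) in every acute heart of the Ctrl (n = 14), Doxo (n = 13) and Doxo-NMN (n = 13) groups; points are hearts, lines are medians and open triangles are hearts with 0 counts, drawn below the lowest measured value. Ankrd1 had a median of 4843 CPM in Doxo against 803 CPM in Ctrl and 949 CPM in Doxo-NMN hearts, while Capn3 was lower in Doxo (1.04 CPM) than in Ctrl hearts (2.37 CPM).

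Among the ankyrin repeat genes, Ankrd1 (chr19:36111961-36120099, minus strand), a titin-binding protein that shuttles to the nucleus, showed the largest difference. Its level was 443 to 1096 CPM in Ctrl hearts (median 803) and 555 to 15786 CPM in Doxo hearts (median 4843). It was above every Ctrl heart in 11 of 13 Doxo hearts, and Doxo 6 (555 CPM) and Doxo 7 (669 CPM) were within the Ctrl range. The log2 fold change was 2.77 ± 0.44 (SE). It was 3.35 among hearts with under 100 CPM of Myl4 and 1.84 among those with at least 100 CPM, and the part of atrial tissue in it was not tested. Ankrd2 (chr19:42036000-42045110, plus strand), the form typical of slow skeletal muscle, was scarce, at 0.0429 to 0.350 CPM in Ctrl and 0.110 to 6.05 CPM in Doxo hearts. Only 6 of 13 Doxo hearts were above every Ctrl heart. The log2 fold change was 2.49 ± 0.49, and it was 1.86 without Doxo 4, the heart with 173 counts, and 1.63 among hearts with at least 100 CPM of Myl4. Ankrd23 (chr1:36530188-36536883, minus strand) was at 5.03 to 14.3 CPM in Ctrl and 9.50 to 96.3 CPM in Doxo hearts, above every Ctrl heart in 11 of 13. Its log2 fold change was 1.77 ± 0.28. In GENCODE, 78.2% of its exonic bases are shared with Gm42417 on the same strand, so its counts are uncertain.

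Of the Z-disc and intercalated disc genes, Csrp3, Xirp1 and Nrap were higher in largely the same Doxo hearts. Csrp3 (chr7:48830398-48848033, minus strand), the muscle LIM protein of the Z-disc, was at 801 to 1106 CPM in Ctrl and 841 to 4390 CPM in Doxo hearts, with a log2 fold change of 0.90 ± 0.16. Xirp1 (chr9:120013755-120023598, minus strand), a Xin repeat protein that binds actin at the intercalated disc, was at 207 to 350 CPM in Ctrl and 285 to 2164 CPM in Doxo hearts (log2 fold change 1.78 ± 0.24). Nrap (chr19:56320035-56390037, minus strand), which anchors growing myofibrils at the cell ends, had the clearest separation. Its level was 531 to 833 CPM in Ctrl and 744 to 3445 CPM in Doxo hearts, and 12 of 13 Doxo hearts were above every Ctrl heart. Its log2 fold change was 1.38 ± 0.18. Xirp2 (chr2:67446002-67526614, plus strand), the larger relative of Xirp1, went the other way, with 464 to 833 CPM in Ctrl and 290 to 744 CPM in Doxo hearts. Xirp2 passed the adjusted p but not the fold cutoff, at a log2 fold change of −0.43 ± 0.12. It passed both in the hearts with at least 100 CPM of Myl4, at −0.66.

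Sprr1a (chr3:92483952-92485895, minus strand), a cornified envelope protein of skin that stressed cardiomyocytes also make, rested on few reads, 68 counts over 14 Ctrl hearts and 398 over 13 Doxo hearts. It was at 0 to 0.257 CPM in Ctrl, with 2 hearts at 0 counts, and at 0.0997 to 2.24 CPM in Doxo hearts. It was above every Ctrl heart in 10 of 13 Doxo hearts, and its log2 fold change was 2.72 ± 0.44. It was 3.20 among hearts with under and 2.16 among those with at least 100 CPM of Myl4. The 7 keratinocyte markers summed to 2.94 to 4.44 CPM in Ctrl and 3.34 to 9.79 CPM in Doxo hearts, with none of the 7 at 0 in every heart of either group. In Doxo-NMN hearts they summed to 3.06 to 5.02 CPM, with Krt5, Krt1 and Ivl at 0 in all 13. Their part in the level of Sprr1a was not tested. Sprr1a and Ankrd2 fell below the filter, and 6 of the 10 genes were called, when acute counts were divided by 2, a choice made after the data were examined because a median of 73.6% of counts between 1 and 20 were even in acute hearts, against 40.3% in chronic hearts. Why was not tested. If acute reads were entered in pairs, the acute counts printed here and the floor of 3 counts stand for fewer independent reads than they state.

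Capn3 (chr2:120456019-120504913, plus strand), a muscle protease held by titin, was lower, at 1.5 to 3.82 CPM in Ctrl and 0.424 to 2.67 CPM in Doxo hearts. It was below every Ctrl heart in 11 of 13 Doxo hearts, and its log2 fold change was −1.24 ± 0.20. Nppb (chr4:147985788-147987205, plus strand), which encodes the B-type natriuretic peptide, did not pass, at 0.34 ± 0.30. It was at 100 to 269 CPM in Ctrl and 68.4 to 439 CPM in Doxo hearts, above every Ctrl heart in 6 and below in 1 of 13. Its direction turned among hearts with at least 100 CPM of Myl4, where the log2 fold change was −0.16.

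Over the 7 genes that were higher, the same hearts were high or low. Doxo 4, 5, 10 and 11 were above every Ctrl heart for 7 of 7, another 6 Doxo hearts for 6 of 7 and Doxo 9 for 5 of 7. Doxo 7 was above for 2 and Doxo 6 for 0. Doxo 4 held the highest value of its group for 6 of the 10 genes. Without Doxo 6, 8 genes passed as before, and the log2 fold change of Ankrd1 was 2.87 and of Nrap 1.45. Ventricular marker sums were 58426 to 74644 CPM in Ctrl and 30125 to 76436 CPM in Doxo hearts, and their part in these levels was not tested. In RNA from heart tissue, fewer cells of a type and less RNA per cell cannot be told apart.

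**Figure D2:**
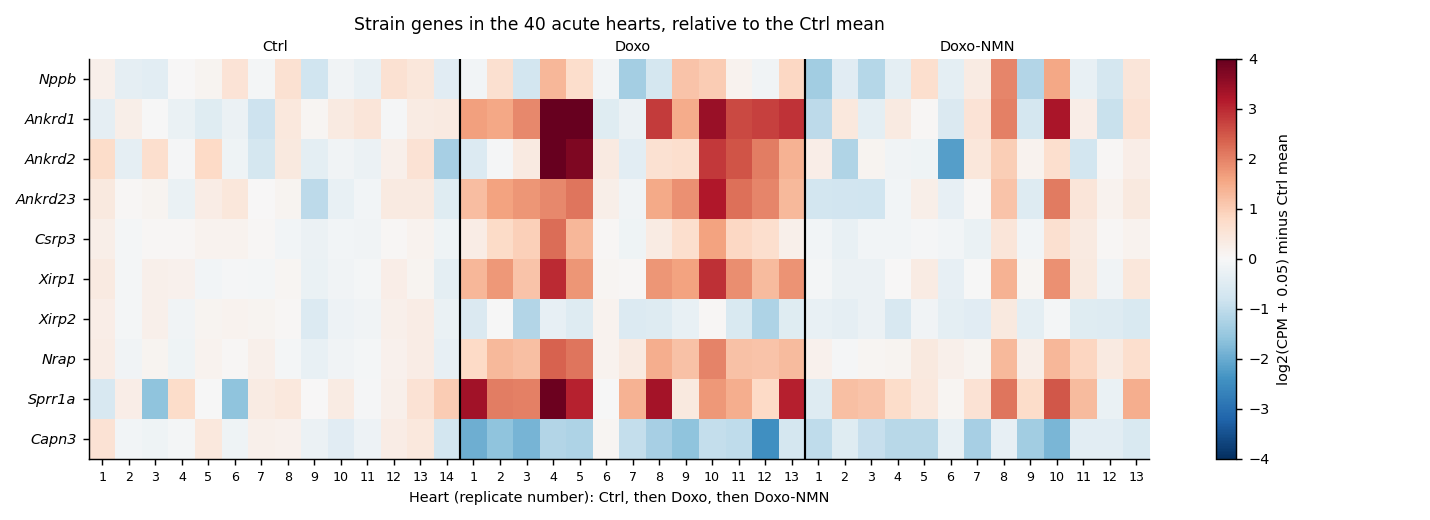
Level of the 10 strain genes in the 40 acute hearts as log2(CPM + 0.05) minus the mean of the Ctrl hearts (colour, limited to ± 4), with 1 column per heart in replicate order within Ctrl, Doxo and Doxo-NMN. Doxo 6 resembles the Ctrl columns, Doxo 7 is pale for Ankrd1, Ankrd23, Csrp3 and Xirp1 but blue for Nppb and Capn3, and Doxo-NMN 8 and 10 are the darkest red of their group for Ankrd1.

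The next comparison asked what NMN changed in acute Doxo mice, and it shares the Doxo hearts with the first. The same 7 genes that were higher with Doxo were lower in Doxo-NMN than in Doxo hearts, and none was higher. Of all genes tested, 8.88% were called lower and 8.17% higher. The median log2 fold change was −1.12 over the 10 genes and −0.00 over all genes. The members were picked with this contrast known, so these counts too are a description.

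Ankrd1 was at 382 to 7476 CPM (median 949) in Doxo-NMN hearts, at a log2 fold change of −1.90 ± 0.44 from Doxo, or −2.50 without Doxo-NMN 10. Of these hearts 9 lay within or below the Ctrl range, but Doxo-NMN 10 (7476 CPM) and Doxo-NMN 8 (3174 CPM) were well above it. Ankrd2 was at 0 to 0.408 CPM, with a log2 fold change of −2.53 ± 0.50, which was −1.90 without Doxo 4. Ankrd23 was at 5.96 to 43.7 CPM (−1.46 ± 0.28) and Csrp3 at 759 to 1471 CPM (−0.85 ± 0.17). Xirp1 was at 216 to 975 CPM (−1.36 ± 0.25), and 7 of 13 Doxo-NMN hearts were below every Doxo heart. Nrap was at 650 to 1703 CPM (−0.88 ± 0.18) and Sprr1a at 0.0568 to 0.803 CPM (−1.49 ± 0.41). Ankrd2 and Sprr1a did not pass among the 5 Doxo and 4 Doxo-NMN hearts with at least 100 CPM of Myl4, at −1.61 and −1.35. The groups overlapped for every gene.

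Capn3, Xirp2 and Nppb did not pass. Capn3 was at 0.676 to 2.04 CPM in Doxo-NMN hearts, and its log2 fold change was 0.38 ± 0.20. Xirp2 was at 438 to 894 CPM, with a log2 fold change of 0.12 ± 0.12. Nppb was at 66.6 to 670 CPM, with a difference of −0.11 ± 0.30, and its highest value was in Doxo-NMN 8. Within the Doxo-NMN group, Doxo-NMN 8 was above every Ctrl heart for 7 of the 7 genes, Doxo-NMN 10 for 6, Doxo-NMN 11 for 5 and Doxo-NMN 13 for 4, while the remaining 9 hearts were above for 0 or 1.

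Set against Ctrl hearts, which the first comparison also used, 2 genes passed in acute Doxo-NMN hearts. Sprr1a was higher, at a log2 fold change of 1.23 ± 0.45, and Capn3 was lower, at −0.86 ± 0.20. Of all genes, 3.31% were called higher and 3.79% lower. Nrap (0.50 ± 0.17) and Xirp2 (−0.31 ± 0.12) passed the adjusted p but not the fold cutoff. Ankrd1 did not pass, at 0.87 ± 0.42, and was 0.27 without Doxo-NMN 10. The remaining log2 fold changes lay between −0.04 for Ankrd2 and 0.42 for Xirp1. The call of Sprr1a was lost in 10 of 40 fits that left out a heart (Ctrl 1, 3, 5, 6, 9 or 11, or Doxo-NMN 8, 10, 11 or 13), and its log2 fold change ranged from 0.99 to 1.37 over all 40. Neither Sprr1a nor Capn3 passed among the hearts with at least 100 CPM of Myl4, where Capn3 was at −0.75. Among those with under 100 CPM, Capn3 passed at −1.09, and Sprr1a did not at 1.61.

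**Figure D3:**
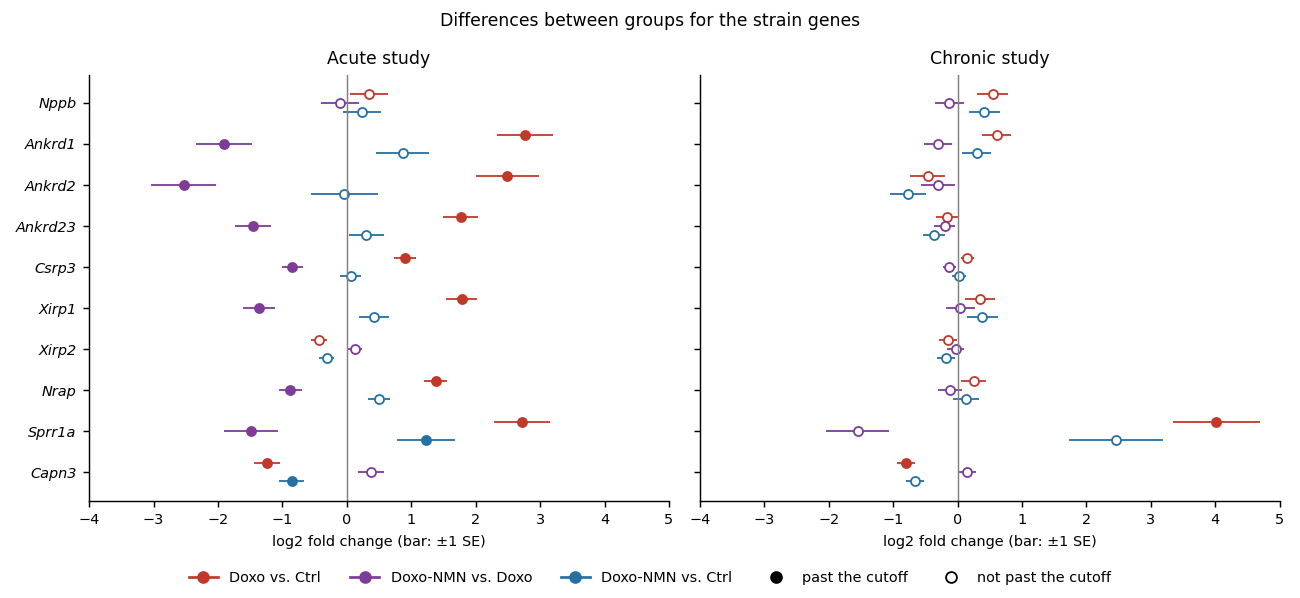
Log2 fold change of each strain gene with bars of ± 1 SE, for 3 comparisons in the acute (left) and chronic study (right); filled points passed the cutoff of their study and open points did not. In the acute study 8 points are filled for Doxo vs. Ctrl and 7 for Doxo-NMN vs. Doxo, and in the chronic study only Sprr1a and Capn3 are filled, both for Doxo vs. Ctrl.

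The chronic study asked what remained weeks after repeated injections. Of the 10 genes, Sprr1a was higher and Capn3 lower in chronic Doxo than in Ctrl hearts at an adjusted p under 0.05. Over all 14960 genes tested, 9 passed, or 0.0602%, and the selection knew this contrast as well. The median log2 fold change was 0.20 over the 10 genes and −0.00 over all genes.

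Sprr1a was at 0.218, 0.0484, 0.248, 0.106 and 0.113 CPM in the 5 Ctrl hearts, from 14 counts in all, and at 0.736 to 6.08 CPM (median 1.71) in the 6 Doxo hearts, from 315 counts. The groups did not overlap, and the log2 fold change was 4.02 ± 0.68. In chronic Doxo-NMN hearts it was at 0.375 to 1.96 CPM (median 0.502), also above every Ctrl heart. Capn3 was at 6.70, 8.28, 7.31, 6.22 and 7.98 CPM in Ctrl and 3.30 to 4.96 CPM (median 4.11) in Doxo hearts, which did not overlap, at a log2 fold change of −0.81 ± 0.14. In Doxo-NMN hearts it was at 3.27 to 5.22 CPM, below every Ctrl heart too. How many of all tested genes had no overlap was not counted.

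Both calls depended on single hearts. Sprr1a lost its call without any 1 of the 5 Ctrl hearts (5 of 17 fits, log2 fold change 3.49 to 4.30 over all 17), and Capn3 lost it without Ctrl 2, 3 or 5 or Doxo 1, 4 or 5 (6 of 17 fits, −0.86 to −0.74). Skeletal muscle fibres are rich in Capn3, and the sum of their markers was highest in Ctrl 1 (2328 CPM) and Ctrl 2 (2011 CPM), against 628 to 650 CPM in Ctrl 3 to 5 and 459 to 945 CPM in Doxo hearts. Without Ctrl 1 and 2, Capn3 stood at −0.78 and Sprr1a at 3.91, and neither passed with 3 Ctrl hearts. Capn3 was at 6.22 to 7.98 CPM in Ctrl 3 to 5 and at most at 4.96 CPM in Doxo hearts, and the part of skeletal muscle in its level was not tested. With the replicate number as a block, Sprr1a passed at 3.48, and Capn3 did not at −0.85. The keratinocyte markers summed to 4.50 to 10.1 CPM in Ctrl and 6.18 to 8.22 CPM in Doxo hearts, with Krt5 at 0 in both groups.

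**Figure D4:**
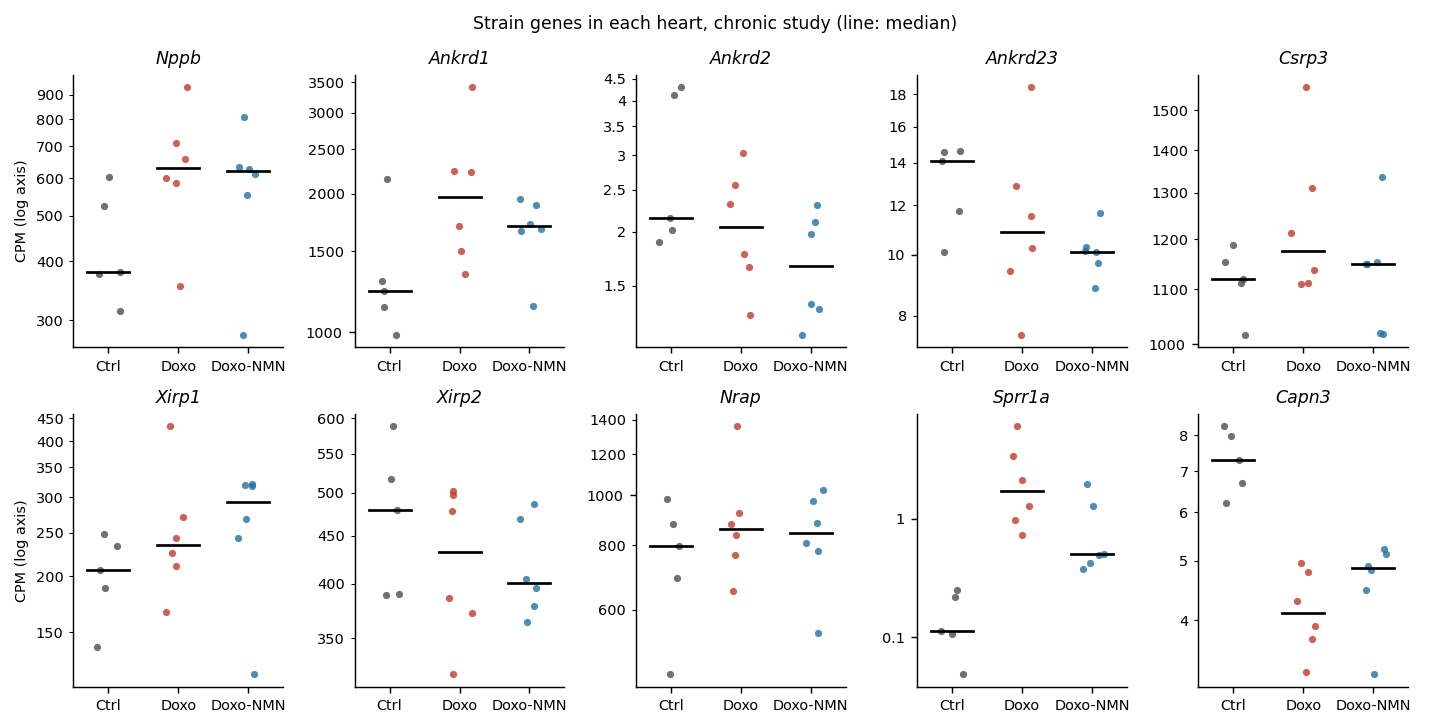
Level of each of the 10 strain genes (CPM, log axis) in every chronic heart of the Ctrl (n = 5), Doxo (n = 6) and Doxo-NMN (n = 6) groups; points are hearts and lines are medians. Sprr1a and Capn3 show no overlap between Ctrl and either treated group, while the other genes overlap. The share of all genes without overlap was not counted.

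The other 8 genes did not pass in chronic Doxo hearts. Ankrd1 was at 2159, 1291, 1133, 986 and 1228 CPM in Ctrl and 1342 to 3417 CPM in Doxo hearts, with a log2 fold change of 0.61 ± 0.23, which was 0.84 without Ctrl 1 and 0.41 without Doxo 2. Nppb was at 603, 314, 375, 380 and 525 CPM in Ctrl and 355 to 935 CPM in Doxo hearts (0.55 ± 0.24). Nrap was 0.25 ± 0.20, Xirp1 0.34 ± 0.24, Csrp3 0.15 ± 0.11, Xirp2 −0.15 ± 0.14 and Ankrd23 −0.16 ± 0.17 in log2 fold change. Ankrd2 was at 4.14 and 4.31 CPM in Ctrl 1 and 2, the hearts with the most skeletal muscle markers, at 1.89 to 2.15 CPM in Ctrl 3 to 5 and at 1.29 to 3.04 CPM in Doxo hearts. Its log2 fold change of −0.46 ± 0.27 became 0.06 without Ctrl 1 and 2. Doxo 2 held the highest value of its group for 6 of the 10 genes, among them Ankrd1 (3417 CPM), Nrap (1360 CPM) and Xirp1 (432 CPM), and without it the log2 fold change was 0.10 for Nrap and 0.14 for Xirp1.

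NMN was given along with Doxo in the third chronic group. Between chronic Doxo-NMN and Doxo hearts, edgeR called none of the 10 genes and 0% of all genes, and 1 of the 10 and 441 of all genes had an unadjusted p under 0.05. DESeq2 also called none of the 10. Sprr1a had the largest difference, a log2 fold change of −1.55 ± 0.49, or −1.03 without Doxo 6, which held 147 of its 315 Doxo counts. The others lay between −0.31 for Ankrd1 and Ankrd2 and 0.15 for Capn3. Between chronic Doxo-NMN and Ctrl hearts none of the 10 passed in edgeR, and 0.0401% of all genes were called. An unadjusted p under 0.05 was found for 4 of the 10 and 707 of all genes. Sprr1a was at 2.46 ± 0.73 and Capn3 at −0.65 ± 0.14, and DESeq2 called Capn3 of the 10 and 8 of all genes. Ankrd1 was at 0.30 ± 0.23 in the same comparison.

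The effect of Doxo was then compared between the studies in 38 Ctrl and Doxo hearts. It was larger in the acute study for Ankrd1, Ankrd2, Ankrd23, Xirp1 and Nrap, at differences of the log2 fold change of 2.15 ± 0.60, 2.94 ± 0.83, 1.92 ± 0.40, 1.43 ± 0.39 and 1.13 ± 0.31. Of all 14965 genes tested, 19.3% differed in either direction, and for the 5 genes this is a description. Csrp3 (0.74 ± 0.30), Nppb (−0.21 ± 0.40), Xirp2 (−0.29 ± 0.22), Capn3 (−0.43 ± 0.32) and Sprr1a (−1.32 ± 0.90) did not pass. With the replicate number as a block 1 of the 5, Ankrd23, passed, and calls over all genes fell as well, from 2887 to 1223. Regimen, time after Doxo, age, supplier and sequencing site differ together here and cannot be told apart.

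The 10 genes did not all follow each other from heart to heart. Over the 40 acute hearts, after subtracting the mean of each group, Pearson's r between pairs ranged from −0.29 to 0.90 (median 0.51 over 45 pairs, Spearman's rho −0.10 to 0.88). Ankrd1, Ankrd23, Csrp3, Xirp1 and Nrap, a set drawn after the values were seen, had r of 0.67 to 0.90 over 10 pairs, and at least 0.61 without the 2 hearts farthest from the median. In the 13 Doxo hearts alone these pairs had r of 0.76 to 0.94, and the highest was between Ankrd1 and Nrap. In the 14 Ctrl hearts alone they had r of −0.60 to 0.86, and Ankrd1 was negative with each of the other 4, from −0.60 with Csrp3 to −0.24 with Xirp1. The lowest rho of the 10 pairs over all 40 hearts was 0.35. Nppb followed Xirp1 (r = 0.74) and Ankrd23 (r = 0.74) most closely. Capn3 had r of −0.29 to 0.49 with the other 9 genes over the 40 hearts. In the 14 Ctrl hearts alone it had r of 0.84 with Nrap, 0.76 with Csrp3 and 0.74 with Ankrd2. The hearts come from 1 sequencing site and differ in depth and tissue, so these values are descriptive.

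**Figure D5:**
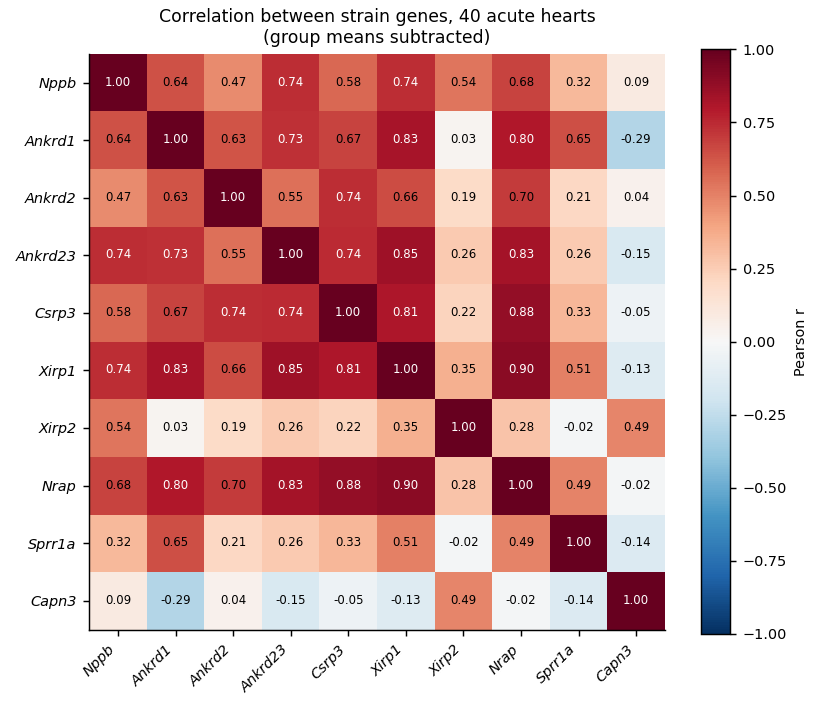
Pearson's r between each pair of strain genes over the 40 acute hearts, computed on log2 CPM after subtracting group means (colour and number in each cell). Ankrd1, Ankrd23, Csrp3, Xirp1 and Nrap, a set drawn after the values were seen, had r from 0.67 to 0.90 with each other. Nppb (0.74 with Xirp1) and Ankrd2 (0.74 with Csrp3) came within this range for some of them. Sprr1a, Capn3 and Xirp2 were below it with each.

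The genes most like each strain gene were taken by the same measure from all tested genes. For Ankrd1 they were Zfp697 (r = 0.93), Tmbim1 (0.89) and Aox1 (0.89). For Nrap they were Myl12a (0.95), Hspb7 (0.94) and Ipo5 (0.94), the highest of any member. For Csrp3 they were Prnp (0.91), Bag3 (0.90) and Usp28 (0.90), for Xirp1 Hbegf (0.91), Mafk (0.89) and Myl12a (0.88), and for Ankrd23 Cnksr1 (0.92), Dync1li1 (0.88) and Clic5 (0.87). For Nppb they were Tnfrsf12a (0.81), Enah (0.80) and Tmem144 (0.76). For Ankrd2 they were Atf4 (0.80), Luzp1 (0.79) and AC160637.1 (0.78), and for Capn3 Mtln (0.76), Sh3bgr (0.74) and Stip1 (0.74). For Sprr1a they were Rtn4 (0.75), Serpinb6a (0.74) and Pir (0.70), and for Xirp2 Glo1, Ube2g1 and Fbxo40 (0.69 each). Without the 2 farthest hearts, r was 0.91 for Zfp697 with Ankrd1 and 0.94 for Myl12a with Nrap. Myl12a was close to both Nrap and Xirp1.

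Related genes of the same structures were listed by role, 88 in 6 groups, of which 84 were tested. In acute Doxo vs. Ctrl hearts 30 of the 84 passed edgeR's test, 23 higher and 7 lower, where 14.7% of all genes were called higher and 15.4% lower, and the median log2 fold change was 0.13, against −0.00 over all genes. The titin, Z-disc and M-band partners were the longest list, with 12 higher and 1 lower of 27 and a group median of 0.52. Of the costamere and intercalated disc genes, 3 of 19 were higher and 1 lower, of the signalling and transcription genes 5 of 19 higher and 1 lower, of the natriuretic peptide system 1 of 8 higher and 2 lower, of the calpains and calpastatin 1 of 6 higher and 1 lower, and of the close relatives 1 of 5 higher and 1 lower.

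The list was taken from textbook roles, with earlier results of these hearts known. Myh7, the slow myosin heavy chain of fetal and stressed ventricle, rose by 4.48 ± 0.44 on the log2 scale (edgeR adjusted p = 1.43e-10), from a median of 433 CPM in Ctrl to 8388 CPM in Doxo hearts. Mkl2, a co-activator of SRF that senses actin, rose from 31.3 to 60.5 CPM (log2 fold change 0.99 ± 0.10, edgeR adjusted p = 4.55e-10). Obsl1, a titin-binding relative of obscurin, fell from 131 to 71.1 CPM (−0.78 ± 0.10, edgeR adjusted p = 7.28e-09). Acta1, skeletal actin, fell from 195 to 34.0 CPM (−2.32 ± 0.33, edgeR adjusted p = 1.83e-07). Acta1, often listed with Myh7 among fetal genes of the stressed ventricle, went the other way. In Doxo 6, which was low for the strain genes, Myh7 was at 453 CPM and Obsl1 at 132 CPM, both within the Ctrl range.

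In acute Doxo-NMN vs. Doxo hearts 16 of the 84 passed, 3 higher and 13 lower, where 8.17% of all genes were called higher and 8.88% lower. Of the 16, 9 were titin, Z-disc and M-band partners (8 lower). The median over the 84 was −0.15, against −0.00 over all genes. Obsl1 was higher (0.65 ± 0.10, edgeR adjusted p = 2.3e-06), at a median of 118 CPM, as was Lmod3, a leiomodin of the thin filament (1.08 ± 0.21, edgeR adjusted p = 5.98e-05). Dmd, dystrophin, was lower (−0.60 ± 0.09, edgeR adjusted p = 3.33e-06), as was Fhl1, a LIM protein that binds the titin spring (−1.32 ± 0.23, edgeR adjusted p = 1.49e-05). Fhl1 had medians of 129, 298 and 150 CPM in Ctrl, Doxo and Doxo-NMN hearts.

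In acute Doxo-NMN vs. Ctrl hearts 7 of the 84 passed, 4 higher and 3 lower, where 3.31% of all genes were called higher and 3.79% lower, a share near the background. Tcap, which caps titin at the Z-disc, was higher (0.997 ± 0.130, edgeR adjusted p = 8.65e-07), with a Ctrl median of 680 CPM, and its Doxo and Doxo-NMN medians were alike, at 1358 and 1359 CPM. Myh7 stayed higher (2.86 ± 0.41, edgeR adjusted p = 3.94e-06). Acta1 (−1.65 ± 0.33, edgeR adjusted p = 0.00029) and Nfatc4, a transcription factor of the calcineurin pathway (−0.62 ± 0.13, edgeR adjusted p = 0.000442), were lower.

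In the chronic study edgeR called none of the 84 in any of the 3 comparisons. An unadjusted p under 0.05 was found for 13 in Doxo vs. Ctrl, 3 in Doxo-NMN vs. Doxo and 6 in Doxo-NMN vs. Ctrl hearts, and DESeq2 called 2, 0 and 0. Of all 14960 genes tested, 1174, 441 and 707 had such a p, and DESeq2 called 24, 0 and 8. Myh7, not called by edgeR, was at 345 to 598 CPM in chronic Ctrl, 652 to 23152 CPM in Doxo and 666 to 1884 CPM in Doxo-NMN hearts. Its Ctrl range did not overlap with either treated group, and how many of all genes had no overlap was not counted. The value of 23152 CPM was in Doxo 2 alone, and the next Doxo heart was at 1149 CPM. The effect of Doxo differed between the studies for 20 of the 84, 10 in each direction, against 19.3% of all genes. With the replicate block it differed for 6 of the 84 and for 1223 of all 14965 genes. Trim54, a ubiquitin ligase of muscle (1.10 ± 0.27, edgeR adjusted p = 0.00729), and Mkl2 (0.83 ± 0.20, edgeR adjusted p = 0.00738) had the more positive effect in the acute study. Obsl1 (−0.81 ± 0.17, edgeR adjusted p = 0.00343) and Nebl, a nebulin relative of the heart Z-disc (−0.51 ± 0.13, edgeR adjusted p = 0.00938), had the more negative one. That count of 20 was 11 to 13 without chronic Ctrl 3, 4 or 5 or chronic Doxo 1, 4, 5 or 6, and it was 34 without acute Doxo 6 and 31 without chronic Doxo 2.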

How the data were processed

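The authors selected poly(A) RNA, sequenced single-end reads, mapped them to mm10 with STAR 2.7.3a and assigned them to genes with featureCounts 2.0.0, per the submitters' processing notes. What was deposited is a table of raw counts, made by the authors and not normalized, for each study, and the strand setting and annotation of the counting are not given in the sources used here. All 57 hearts were assigned to groups by their labels. The 10 genes and the lists of related and marker genes were chosen with earlier results of these data known.

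Under R 4.3.3, edgeR 4.0.16 was run on these counts (filterByExpr by group, TMM, quasi-likelihood F-test, Benjamini-Hochberg over all genes tested), with the 3 groups of a study in 1 fit. A call needed an adjusted p under 0.05 and, for acute hearts, a change of 1.5-fold or more. The study contrast was an interaction on 25416 shared symbols. The test weighs a difference between groups against the spread between hearts. CPM is relative to the TMM-scaled sum of tested genes. RPKM divides it by the union of GENCODE M21 exons. Likeness was computed on log2 CPM (prior count 2). The 2 related genes of smallest adjusted p per direction and comparison are named, and the 3 genes most like each of the 10. The test was checked on simulated counts. The lowest chi-square per gene between hearts of a group was 9.91 (acute) and 5.09 (chronic), so no library was repeated within a group. Pairs of hearts from different groups were not examined in this way.

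Alternatives were DESeq2 1.42.0, RLE factors, other filters, only the groups compared, the replicate block, atrial strata, no fold cutoff and leaving out each heart. Halved acute counts and the skeletal muscle settings were added after the data were examined. Promoter windows are RefSeq's, on GRCm38.p6. Figures were drawn with matplotlib.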

Additional observations from a re-analysis of the deposited data

Results flagged for a closer look

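Among the 30 groups of 4 to 10 hearts examined for a heart far from the rest, where chance alone sets apart about 1 in 20, Ankrd1 did so in 2 groups. It was at 2159 CPM in chronic Ctrl 1, and the next of the 5 Ctrl hearts was at 1291 CPM. It was at 1139 CPM in chronic Doxo-NMN 5, and the next of the 6 hearts was at 1663 CPM.

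The effect of Doxo differed between the acute and the chronic study in the edgeR interaction for 5 strain genes, where 19.3% of all 14965 genes tested differed. For genes chosen with earlier results known this is a description. The difference of the log2 fold change, acute minus chronic, was 2.15 for Ankrd1, 2.94 for Ankrd2, 1.92 for Ankrd23, 1.43 for Xirp1 and 1.13 for Nrap. With the replicate block only Ankrd23 of these passed. Regimen, time after Doxo, age, supplier and sequencing site differ together between the studies and cannot be told apart.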

How the results depend on the processing

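Log2 fold changes under the alternatives were set against the main value, with the SD of log2 CPM between hearts within groups as the margin. That margin was wide (1.11 for Ankrd1 in acute hearts, where the SE was 0.44), so staying within it says little. Ankrd1 in acute Doxo vs. Ctrl, at 1.84 with at least 100 CPM of Myl4 and 2.77 in the main fit, counted as kept. Of the values of the 10 genes, 2624 kept within 1 SD of the main value, 4 moved further and no called one turned sign. The 4 were Ankrd2 in chronic Doxo vs. Ctrl (0.06 without Ctrl 1 and 2), Ankrd2 in chronic Doxo-NMN vs. Ctrl (−0.25 without them, −0.26 with the skeletal muscle covariate) and Ankrd1 there (0.73 with the covariate). Strain genes called in acute Doxo-NMN vs. Ctrl (2) came to 1 with no filter, with at least 10 counts in every heart, with only the groups compared, with under 100 CPM of Myl4 and with halved counts, to 0 with at least 100 CPM of Myl4 and to 4 with no fold cutoff. Those in chronic Doxo vs. Ctrl (2) came to 0 with at least 10 counts in every heart, only the groups compared, without Ctrl 1 and 2 or with the skeletal muscle covariate, and those in chronic Doxo-NMN vs. Ctrl (0) to 1 with DESeq2. Related genes in chronic Doxo vs. Ctrl (0) came to 2 with DESeq2, 3 with no filter and 2 with the covariate, and in chronic Doxo-NMN vs. Ctrl (0) to 1 with only the groups compared. With no fold cutoff, acute related genes came to 69, 58 and 27 (from 30, 16 and 7), and with at least 100 CPM of Myl4 those in Doxo-NMN vs. Ctrl to 2. Over all 14240 genes, 9694, 7554 and 3705 were called with no fold cutoff. Leaving out each heart gave 8 to 8, 7 to 7 and 1 to 2 strain genes in the acute comparisons, 0 to 2, 0 to 0 and 0 to 0 in the chronic ones and 5 to 6 between the studies. For related genes it gave 29 to 35, 12 to 18 and 5 to 9, then 0 to 2, 0 to 0 and 0 to 0, and 11 to 34. The causes were not tested, except that the filter of 10 counts and halving drop scarce genes. Ankrd2 and Sprr1a gave no value under these.

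Same-numbered hearts did not pair. Over 39 acute pairs the correlation of their deviations was −0.62 to 0.58 (18 over 0.1) and over 16 chronic pairs −0.25 to 0.41 (4 over 0.1), and 4 of 40 and 3 of 17 hearts correlated best with their own number. With the replicate block, strain genes called came to 8, 7 and 2 in the acute comparisons, to 1 in chronic Doxo vs. Ctrl and to 1 between the studies, where related genes came to 6. Over all genes it gave 4242, 2456 and 963 calls in the acute comparisons, 7 in chronic Doxo vs. Ctrl and 1223 between the studies. Depth limits Sprr1a, Ankrd2 and Capn3 most.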
